A study of Mus musculus with 6 samples.

Results

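This account covers 9 of the 23183 gene symbols counted in mouse fibrosarcoma tumours. They are 5 members of the CCN family of secreted matrix proteins, *Cyr61*, *Ctgf*, *Nov*, *Wisp1* and *Wisp2*, and 4 genes known as targets of the transcriptional co-activator YAP, *Ankrd1*, *Amotl2*, *Lats2* and *Ajuba*. The rows were taken by gene symbol. All 9 symbols were present and all 9 passed the filter on low counts, which 12517 genes passed in all. The set was selected on measured values, the log2 fold changes between treated and untreated tumours in these same libraries, that of *Cyr61* above all. Their differences between the groups are therefore given as a description, with no test, and nothing is supported with them.

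Bulk RNA came from 6 tumours grown from UV2237M, a mouse fibrosarcoma cell line labelled WT in genotype. In the 3 treated tumours gold nanoclusters (GNC), which heat up under light, were given on day 1 and again on day 7 and combined with near-infrared (NIR) irradiation. The 3 untreated tumours had neither. No group had GNC or NIR alone, so their effects cannot be told apart. Whether each tumour was taken from a different mouse, and when it was taken, is not stated, so p-values measure only the spread between these samples.

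CCN proteins are secreted modular proteins that bind integrins and heparan sulphate and tie growth factors to the matrix. Some of them, among them *Cyr61* and *Ctgf*, are induced by serum, stretch and wounding in connective tissue cells. YAP and its relative TAZ move to the nucleus when the Hippo kinases are inactive and bind TEAD factors on DNA. *Cyr61*, *Ctgf* and *Ankrd1* are the most widely used readouts of that step, while *Amotl2*, *Lats2* and *Ajuba* code for proteins that act back on the pathway.

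The total count was 5696774 to 7915087 in treated libraries and 4680295 to 8019294 in untreated ones. Values are CPM, counts scaled to a common library size after TMM normalization. Untreated 2 stood apart, with a mean distance of 1.22 log2 CPM to the other 5 libraries, where these had 0.611 to 0.729, so log2 fold changes are also given without it. The 8 fibroblast markers were all detected, 3 of them higher and 5 lower in treated tumours. Their summed level was 19023 to 24620 CPM in treated and 21525 to 26482 CPM in untreated tumours, most of it *Col3a1* (means 15626 CPM in treated and 19983 CPM in untreated tumours). *Lum* averaged 99.5 CPM in treated and 636 CPM in untreated tumours, and *Col1a2* averaged 1531 CPM in treated and 416 CPM in untreated tumours. *Col1a1* had 59.4 CPM in untreated 2, where untreated 1 and 3 had 2209 and 2494 CPM. These are bulk samples, in which fewer cells of a type and less RNA per cell cannot be told apart.

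The DNA just before the RefSeq transcription start was looked up for the 9 genes, since TEAD factors bind the MCAT core GGAATG. The RefSeq promoter table (build GRCm38.p6) had an entry for 5 of them, *Cyr61*, *Ankrd1*, *Amotl2*, *Lats2* and *Ajuba*, and *Ctgf*, *Nov*, *Wisp1* and *Wisp2* had none. In the 250 bases before the start, GGAATG was found on either strand in 4 of the 5 genes and in 12.6% of all 32851 windows of the table. The *Cyr61* window, chr3:145649986-145650235 on the minus strand, holds it once, 103 to 98 bases before the start, in the reverse orientation (CATTCC), and a TATAAA 25 to 20 bases before the start, a motif found in 7.59% of windows. The *Ajuba* window, chr14:54577662-54577911 on the minus strand, holds CATTCC at 186 to 181 and at 164 to 159 bases before the start. These windows are shown whole because they hold the motif and overlap no annotated exon. Capitals mark the motifs.
Cyr61: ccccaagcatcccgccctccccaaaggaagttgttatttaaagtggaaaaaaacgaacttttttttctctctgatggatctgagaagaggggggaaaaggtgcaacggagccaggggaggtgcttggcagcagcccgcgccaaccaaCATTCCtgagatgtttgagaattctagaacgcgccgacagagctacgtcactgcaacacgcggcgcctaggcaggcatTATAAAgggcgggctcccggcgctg
Ajuba: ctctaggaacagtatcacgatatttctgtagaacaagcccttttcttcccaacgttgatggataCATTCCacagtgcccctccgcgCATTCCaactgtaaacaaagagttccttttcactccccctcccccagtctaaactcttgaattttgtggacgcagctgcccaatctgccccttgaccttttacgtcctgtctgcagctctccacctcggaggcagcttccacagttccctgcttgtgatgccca

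The *Ankrd1* and *Amotl2* windows overlap 6 and 2 exons of the GENCODE annotation. Both windows, chr19:36119845-36120094 and chr9:102717554-102717803, lie wholly within the annotated span of their gene. Their matches are thus before the RefSeq start but inside the gene as annotated. For these genes, 26 bases around each match are shown, so that the flanks can be set beside those of *Cyr61* and *Ajuba*. The first *Ankrd1* stretch is chr19:36120039-36120064 and the second chr19:36119952-36119977, both on the minus strand, and the *Amotl2* stretch is chr9:102717729-102717754 on the plus strand.
Ankrd1, far site: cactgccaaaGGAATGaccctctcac
Ankrd1, near site: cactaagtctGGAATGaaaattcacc
Amotl2: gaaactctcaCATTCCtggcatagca
The near ends of these matches lie 205, 118 and 60 bases before the RefSeq start. *Lats2* has 2 starts in the table, and these letters are in neither window. No member's window held a CArG box or the AP-1 motif TGANTCA (both strands), which 1.47% and 6.75% of windows held. A match is a run of letters, not a site shown to be bound.

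*Cyr61* (chromosome 3, 145646976 to 145649981, mm10, protein-coding), a matrix protein that binds integrins, had 383, 329 and 459.5 CPM in treated tumours and 113, 138 and 114 CPM in untreated tumours, each in the order of libraries 1, 2 and 3, as in all that follows. The lowest treated library lay far above the highest untreated library. The means were 391 ± 65.6 CPM in treated and 122 ± 14.4 CPM in untreated tumours (SD, n = 3 each), a ratio of 3.21. The log2 fold change was 1.68 with an SE of 0.22 over 6 libraries and 1.78 with an SE of 0.16 without untreated 2. Leaving out each library in turn kept it between 1.55 and 1.79. Of the 9 genes, *Cyr61* was the only one in which all treated libraries lay above all untreated ones, and none lay below in all. Over all tested genes these shares were 10.6% and 10.2%, and since this contrast chose the genes, nothing is read from the count.

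*Ctgf* (chromosome 10, 24595442 to 24598683), the CCN protein best known from fibrosis, had 27.5, 25.2 and 22.1 CPM in treated tumours and 13.9, 13.2 and 22.3 CPM in untreated tumours. Untreated 3 lay a little above treated 3, so the groups overlapped. The mean was 24.9 ± 2.71 CPM in treated and 16.5 ± 5.09 CPM in untreated tumours (SD, n = 3 each). The log2 fold change was 0.59 with an SE of 0.27, or 0.44 with an SE of 0.22 without untreated 2, and it was 0.88 without untreated 3. The annotation places a non-coding transcript, *Gm15270*, on the opposite strand of *Ctgf*. It has no row of its own in the tables, and with the strand setting of the counting not given in the sources used here, reads of the pair cannot be told apart.

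*Nov* (chromosome 15, 54745702 to 54754039), a CCN protein that binds NOTCH1 as well as integrins, was scarce. It had 1.61, 5.58 and 5.10 CPM in treated tumours and 1.06, 2.45 and 2.58 CPM in untreated tumours. Treated 2 and 3 stood above the rest and treated 1 lay among the untreated values. These values rest on 9, 41 and 41 counts in treated libraries and 7, 11 and 21 in untreated ones. The counting error alone puts treated 1 between 0.736 and 3.05 CPM (exact 95% Poisson interval, which covers counting error only). The log2 fold change was 1.03 with an SE of 0.58, the widest of the CCN genes, or 1.16 without untreated 2. Leaving out each library in turn gave 0.70 to 1.39.

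*Wisp1* and *Wisp2* had lower means in treated tumours, with overlapping groups. *Wisp1* (chromosome 15, 66891320 to 66923201), first described as a target of WNT signalling, had 283, 345 and 207 CPM in treated tumours and 298, 384 and 308 CPM in untreated tumours. Treated 3 was the lowest library, and treated 2 lay within the untreated range. Its log2 fold change was -0.25 with an SE of 0.25, or -0.13 without untreated 2. It was -0.43 without treated 2 and -0.07 without treated 3. *Wisp2* (chromosome 2, 163820861 to 163833146), the CCN protein that lacks the carboxy-terminal module of the others, had 19.5, 30.2 and 11.8 CPM in treated tumours and 28.1, 33.0 and 25.4 CPM in untreated tumours. Again treated 3 was the lowest and treated 2 lay within the untreated range, and the log2 fold change was -0.49 with an SE of 0.35, or -0.39 without untreated 2. It was -0.88 without treated 2 and -0.21 without treated 3, so its size turned on which treated libraries were kept. The remaining family member, *Wisp3*, had 1, 6 and 4 counts in treated libraries and 4, 0 and 3 in untreated ones. It did not pass the filter on low counts. The exact 95% Poisson interval of the 0 counts in untreated 2 reaches 3.69 counts, where 3 counts make 0.669 CPM in that library.

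**Figure D1:**
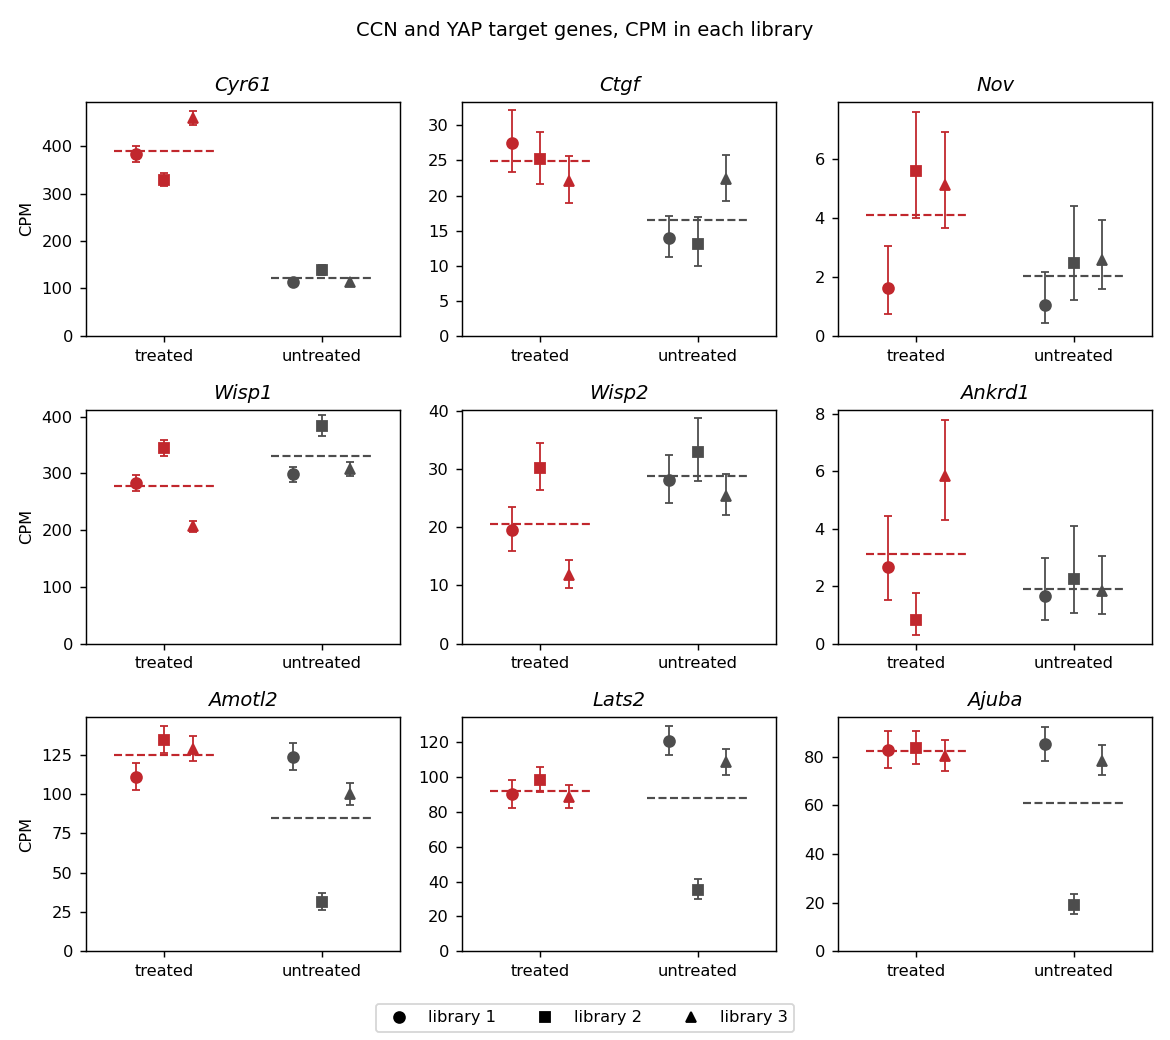
CPM of the 9 genes (vertical axes, linear from 0) in the 3 treated libraries (red, left) and the 3 untreated libraries (grey, right), with bars for the exact 95% Poisson interval of the count and dashed lines for the group means. In *Cyr61* alone the groups do not overlap, and in *Amotl2*, *Lats2* and *Ajuba* untreated 2 (grey square) lies far below the other 5 libraries.

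*Ankrd1* (chromosome 19, 36111961 to 36120099), a nuclear ankyrin repeat protein abundant in heart and in stressed skeletal muscle, had 2.68, 0.816 and 5.84 CPM in treated tumours and 1.66, 2.23 and 1.84 CPM in untreated tumours. The untreated values lay close together, and the treated values lay on both sides of them. Treated 3 held 47 counts, and the other 5 libraries held 6 to 15. The log2 fold change was 0.72 with an SE of 0.67, or 0.83 without untreated 2, and it was -0.14 without treated 3. Treated 3 also had the highest summed level of 7 skeletal muscle markers, among them *Ckm* and *Acta1*. That level was 24.0, 3.54 and 435 CPM in treated tumours and 99.7, 35.9 and 19.0 CPM in untreated tumours. Treated 2, the lowest library for *Ankrd1*, was also the lowest for these markers. The other libraries did not keep this order. Untreated 1, with 99.7 CPM of the markers, had the lowest untreated *Ankrd1* value, 1.66 CPM. Treated 1, with 24.0 CPM of the markers, had 2.68 CPM of *Ankrd1*, above all untreated libraries. The part of muscle tissue in the *Ankrd1* values was not tested.

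*Amotl2* (chromosome 9, 102716672 to 102733418), an angiomotin that holds YAP in the cytoplasm, had 111, 134 and 129 CPM in treated tumours and 123, 31.2 and 99.9 CPM in untreated tumours. *Lats2* (chromosome 14, 57689662 to 57758388), the kinase that phosphorylates YAP, had 90.1, 98.5 and 88.5 CPM in treated tumours and 121, 35.5 and 109 CPM in untreated tumours. *Ajuba* (chromosome 14, 54567472 to 54577558), a LIM protein that restrains LATS kinases, had 82.8, 83.5 and 80.3 CPM in treated tumours and 85.0, 19.2 and 78.3 CPM in untreated tumours. In each of these genes the treated libraries lay close together and untreated 2 lay far below all others.

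Those 3 differences between the groups turned on that library. With all 6 libraries the log2 fold changes were 0.55 for *Amotl2* (SE 0.46), 0.06 for *Lats2* (SE 0.43) and 0.43 for *Ajuba* (SE 0.49). Without untreated 2 they were 0.15 for *Amotl2* (SE 0.14), -0.32 for *Lats2* (SE 0.11) and 0.00 for *Ajuba* (SE 0.11). *Ajuba* then averaged 82.2 CPM in treated and 81.6 CPM in untreated tumours. *Lats2* averaged 92.4 CPM in treated and 115 CPM in untreated tumours, and its 3 treated libraries lay below both remaining untreated ones. In the annotation another protein-coding gene model without a row in the tables, *Gm49361*, shares the strand and most of the span of *Lats2*, so its reads may be counted with it.

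**Figure D2:**
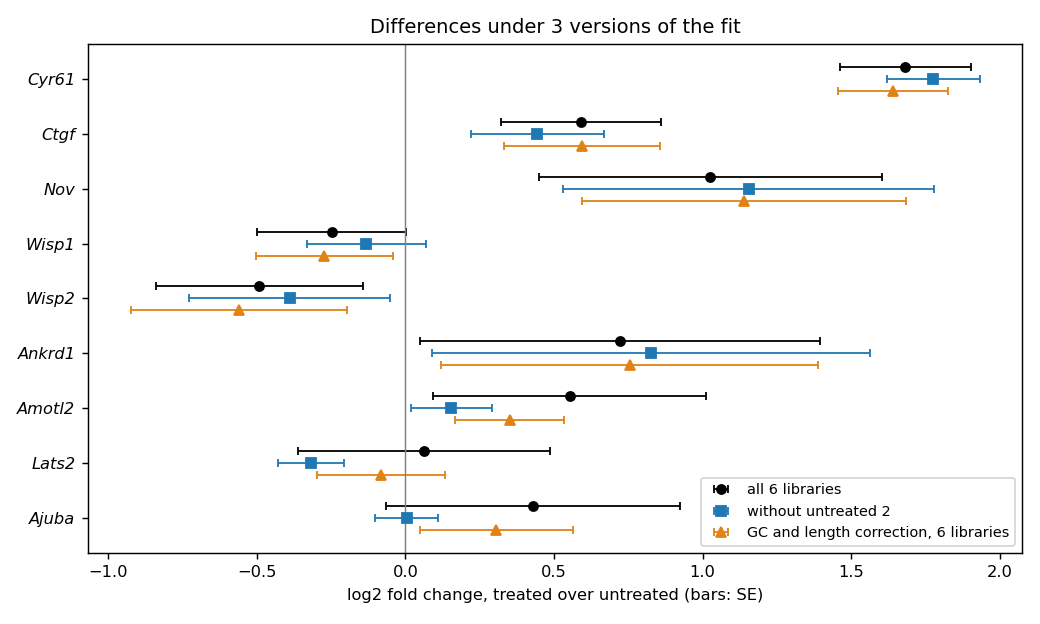
Log2 fold change of each gene, treated over untreated (horizontal axis, bars show the SE), from 3 versions of the fit. *Cyr61* stays between 1.64 and 1.78 in the versions shown, while *Amotl2*, *Lats2* and *Ajuba* shift towards 0 or below without untreated 2.

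The composition of untreated 2 was measured beside these values. Genes were put in 5 equal bins by the GC content of their longest transcript. The median gene of the highest bin lay 0.74 log2 below the mean of untreated 1 and 3 (a difference of -0.74). *Ajuba* (58.3% GC) and *Amotl2* (56.7% GC) fall in that bin and differed by -2.06 and -1.81, lower than all but 17.0% and 22.4% of its genes. *Lats2* (52.2% GC) falls in the fourth bin, whose median was -0.42, and differed by -1.68, lower than all but 15.6% of the bin. *Wisp2* (57.0% GC) shares the highest bin with *Ajuba*, yet differed by 0.30 in the other direction. *Cyr61* (52.7% GC) shares the fourth bin with *Lats2* and differed by 0.29. With a trend in GC content and length removed from each library, the log2 fold changes were 1.64 for *Cyr61* (SE 0.19), 0.35 for *Amotl2* (SE 0.18), -0.08 for *Lats2* (SE 0.21) and 0.31 for *Ajuba* (SE 0.26). The part of RNA quality or library preparation in untreated 2 was not tested.

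The profiles of the 9 genes were set beside each other as a description. Likeness was measured as the root mean square difference of log2 CPM over the 6 libraries after each gene's own mean was taken off, and 36 pairs of genes were compared. *Amotl2* and *Ajuba* were the closest pair, at 0.14. *Wisp1* and *Wisp2* followed at 0.23, *Lats2* and *Ajuba* at 0.26, and *Amotl2* and *Lats2* at 0.27. The next pair was at 0.53, and *Cyr61* and *Wisp2* were the farthest apart, at 1.24. The nearest other member to *Cyr61* was *Ctgf*, at 0.64. These distances hold the contrast between treated and untreated tumours by which the set was selected, so nothing is read from them. The measure is also not scaled to the size of a gene's differences, so genes with small differences lie closer together. *Amotl2*, *Lats2* and *Ajuba* share their low value in untreated 2, as the heat map of profiles shows.

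**Figure D3:**
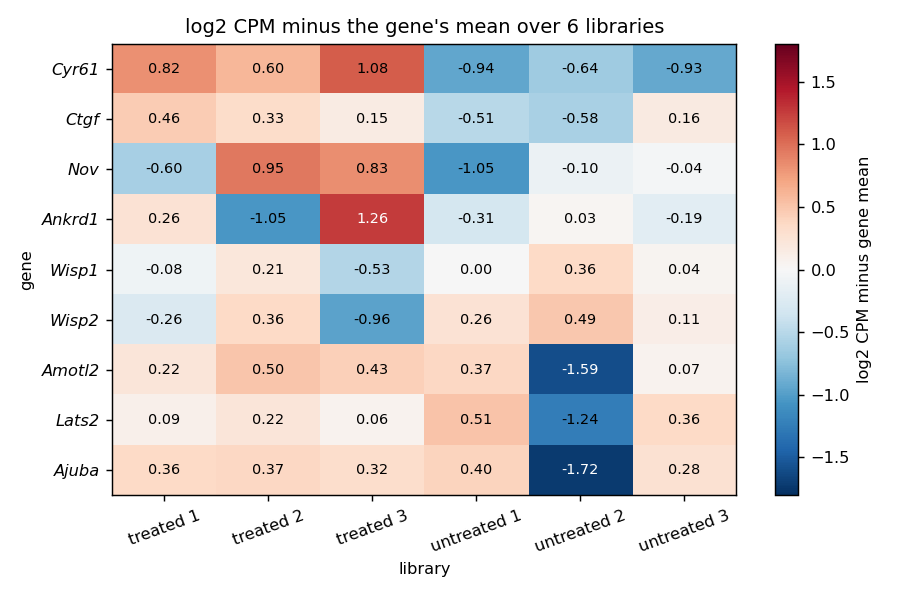
Log2 CPM of each gene (rows) in each library (columns), minus the gene's mean over the 6 libraries, with the value printed in each cell (red above, blue below). *Cyr61* separates treated from untreated libraries, whereas *Amotl2*, *Lats2* and *Ajuba* stand out by their low values in untreated 2, and *Wisp1* and *Wisp2* are lowest in treated 3.

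Among the 10475 other named genes with a mean of at least 5 CPM, those nearest to *Cyr61* were *Csrnp1* at 0.35, *Thbd* at 0.36 and *Dusp1* at 0.37. *Thbd*, the thrombin receptor thrombomodulin, averaged 18.6 CPM in treated and 8.20 CPM in untreated tumours. *Dusp1*, a phosphatase of MAP kinases, averaged 58.7 CPM in treated and 17.1 CPM in untreated tumours. None was nearer than 0.35. *Ajuba*, which stood out by its low value in untreated 2, had *Ube3b* at 0.029, *Igf1r* at 0.030 and *C2cd5* at 0.043. In the GC bin of *Ajuba* (55.4% to 71.3% GC), 42.2% of genes lay more than 1 log2 lower in untreated 2 than in untreated 1 and 3. *Ube3b* (56.3% GC) falls in that bin, but *Igf1r* (49.4% GC) and *C2cd5* (46.1% GC) do not. In the bins of *Igf1r* and *C2cd5*, 21.0% and 10.6% of genes lay that much lower. The part of GC content in these likenesses was not tested. Since the measure is not scaled, the distances of different members to their nearest genes are not compared with each other. *Ctgf* lay nearest to *Gdpgp1* (0.099), *Lif* (0.12) and *Dhx33* (0.13), and *Nov* to *Ccdc80* (0.20), *Col14a1* (0.22) and *Ackr3* (0.26). *Wisp1* lay nearest to *Rabl2* (0.088), *Tbc1d14* (0.091) and *Ap4m1* (0.096), and *Wisp2* to *Egfr* (0.15), *Rbm43* (0.16) and *Trps1* (0.17). For *Amotl2* they were *Tmppe*, *Sp2* and *Baz2a* (0.064 to 0.087), for *Lats2* *Atf7*, *Cacfd1* and *Wasf2* (0.045 to 0.056), and for *Ankrd1* *Snrnp35*, *Ccne1* and *Mtfr2* (0.36 to 0.40).

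Levels between genes were compared per length, as CPM per kb of the longest transcript. In treated tumours *Cyr61* had the highest level of the 9, at 193 ± 32.5 CPM per kb, followed by *Wisp1* at 54.5 ± 13.6. *Amotl2* (28.1 ± 2.76), *Ajuba* (24.2 ± 0.493), *Lats2* (17.8 ± 1.03), *Wisp2* (11.9 ± 5.37) and *Ctgf* (10.02 ± 1.09) came next, and *Ankrd1* (1.54 ± 1.26) and *Nov* (1.43 ± 0.755) were last (SD, n = 3 each). By this length *Amotl2* lay above *Ajuba* in each treated library, but per kb of exon union *Ajuba* averaged 22.5 and *Amotl2* 19.8 CPM in treated tumours, so their order is not settled. Likewise *Nov* averaged 1.43 and *Ankrd1* 1.08 CPM per kb of exon union. The ranges of *Lats2* and *Wisp2*, of *Wisp2* and *Ctgf*, and of *Ankrd1* and *Nov* overlapped.

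In untreated tumours *Wisp1* (64.8 ± 9.19 CPM per kb) and *Cyr61* (60.3 ± 7.14) were at the top with overlapping ranges, and *Wisp1* was the higher in each of the 3 libraries, but not in the mean per kb of exon union (59.3 for *Wisp1* and 60.3 for *Cyr61*). *Amotl2* (19.2 ± 10.8), *Ajuba* (17.9 ± 10.7), *Lats2* (17.0 ± 8.89) and *Wisp2* (16.8 ± 2.25) could not be placed in an order beyond their spread. *Ctgf* had 6.61 ± 2.04, *Ankrd1* 0.946 ± 0.144 and *Nov* 0.708 ± 0.294 CPM per kb (SD, n = 3 each). Among 22814 genes with a length, *Cyr61* lay above 95.7% to 99.2% of genes in its library and *Nov* above 41.9% to 53.4%.

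**Figure D4:**
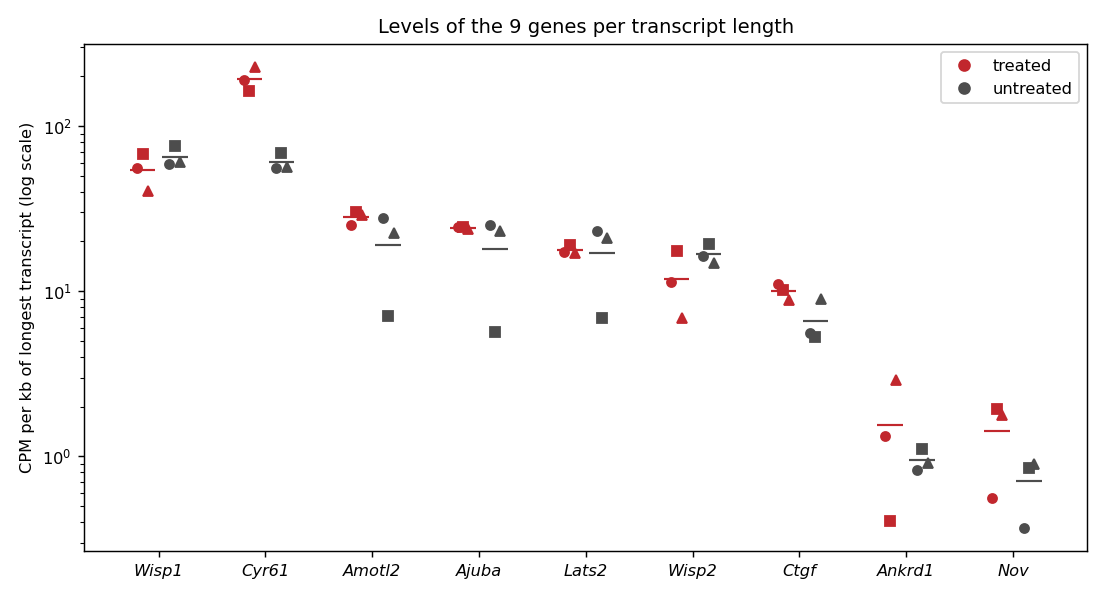
Level of each gene in CPM per kb of its longest transcript (log axis) in treated (red, left) and untreated (grey, right) libraries, with lines for the group means and circle, square and triangle for libraries 1, 2 and 3. *Cyr61* stands above *Wisp1* in treated tumours (193 and 54.5 CPM per kb), and the pair overlaps in untreated tumours (60.3 and 64.8 CPM per kb).

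The make-up of the summed CCN level per length is given as a description. The set was selected on the change of *Cyr61*, which enters every share and ratio below, so nothing is read from their differences. The shares of a library add up to the whole, so a higher share of *Cyr61* lowers that of *Wisp1*. The *Wisp1* level itself overlapped between the groups (log2 fold change -0.25, SE 0.25). *Cyr61* made up 70.8%, 62.6% and 79.7% of the level of the 5 CCN genes in treated tumours and 40.9%, 40.5% and 39.9% in untreated tumours. *Wisp1* made up 20.7%, 26.0% and 14.2% in treated tumours and 42.8%, 44.5% and 42.7% in untreated tumours. The ratio of *Cyr61* to *Wisp1* was 3.42, 2.41 and 5.62 in treated tumours and 0.956, 0.910 and 0.933 in untreated tumours. That ratio varied little among untreated libraries, untreated 2 included. The ratio of *Cyr61* to *Ctgf* was 17.2, 16.1 and 25.6 in treated tumours and 10.01, 12.96 and 6.29 in untreated tumours.

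Genes around the 9 were then tested between treated and untreated tumours in the same fit over all genes. EdgeR's quasi-likelihood test called 0 of 12517 genes at a Benjamini-Hochberg adjusted p under 0.05, a share of 0%, so no gene below passed. By unadjusted p alone, 1023 genes lay under 0.05. Limma-voom called 0 and DESeq2 called 57 of 11539 genes with an adjusted p (0.494%). Over all tested genes 49.9% had a log2 fold change above 0, and the median was -0.00.

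Of the YAP, TAZ, TEAD and Vgll genes that carry the signal to DNA, 10 were listed, 8 passed the filter, 4 of these were higher and 4 lower, and 0 were called. The median log2 fold change was 0.08, and -0.26 without untreated 2. *Yap1*, named outside the rule, had 208, 207 and 192 CPM in treated tumours and 218, 75.0 and 206 CPM in untreated tumours, with untreated 2 the lowest library, as in *Ajuba*. *Wwtr1*, which codes for TAZ, had 362, 374 and 236 CPM in treated tumours and 511, 887 and 458 CPM in untreated tumours. All treated libraries lay below all untreated ones, with a log2 fold change of -0.93 (SE 0.33, edgeR adjusted p = 0.592), or -0.59 without untreated 2. *Vgll3*, a TEAD cofactor, averaged 24.1 ± 6.22 CPM in treated and 39.7 ± 6.42 CPM in untreated tumours, and *Tead4* averaged 12.9 ± 2.95 CPM in treated and 6.42 ± 3.40 CPM in untreated tumours (SD, n = 3 each). Neither pair of groups overlapped, and the edgeR adjusted p was 0.592 for each. In 2 of the 8 tested genes all treated libraries lay above all untreated ones (10.6% of all tested genes did), and in 3 all lay below (10.2%). On the log2 scale the difference of *Vgll3* was -0.72 with all libraries and -0.63 without untreated 2, and that of *Tead4* was 0.98 with all and 0.64 without it.

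Of 27 Hippo kinases, adaptors and upstream cadherins, 26 passed the filter, with 17 higher, 9 lower and 0 called, and a median log2 fold change of 0.14, or 0.02 without untreated 2. *Amot*, the founding angiomotin, had 52.2, 73.5 and 40.9 CPM in treated tumours and 109, 94.4 and 91.1 CPM in untreated tumours. Its groups did not overlap, and its log2 fold change was -0.82 (SE 0.26, edgeR adjusted p = 0.592), or -0.85 without untreated 2. *Amotl2*, its relative among the 9 genes, had 0.55 (SE 0.46) with overlapping groups, or 0.15 (SE 0.14) without untreated 2. *Wwc1*, the scaffold KIBRA, averaged 30.4 ± 5.17 CPM in treated and 13.1 ± 8.49 CPM in untreated tumours, and *Fat4*, a giant cadherin, averaged 15.5 ± 7.75 CPM in treated and 5.28 ± 3.96 CPM in untreated tumours (SD, n = 3 each). The groups of *Wwc1* did not overlap and those of *Fat4* did. In 5 of the 26 tested genes all treated libraries lay above all untreated ones (10.6% of all tested genes did), and in 3 all lay below (10.2%). On the log2 scale the difference of *Wwc1* was 1.19 with all libraries and 0.77 without untreated 2, and that of *Fat4* was 1.51 with all and 1.11 without it.

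A published signature of YAP and TAZ targets in tumours includes *Cyr61*, *Ctgf*, *Ankrd1*, *Amotl2* and *Lats2*, and its 17 other genes all passed the filter. Of these, 11 were higher, 6 lower and 0 called, with a median log2 fold change of 0.26, or -0.03 without untreated 2, where 7 of 17 were higher. In 3 of the 17 all treated libraries lay above all untreated ones (10.6% of all tested genes did) and in 2 all lay below (10.2%). *Nt5e*, the ectoenzyme CD73 that makes adenosine, had 168, 220.0 and 122 CPM in treated tumours and 346, 615 and 277 CPM in untreated tumours, with a log2 fold change of -1.28 (SE 0.37, edgeR adjusted p = 0.592), or -0.88 without untreated 2. *Rbms3*, an RNA-binding protein, averaged 98.2 ± 25.1 CPM in treated and 191 ± 51.2 CPM in untreated tumours. *Igfbp3*, a binding protein of insulin-like growth factors, averaged 102 ± 17.4 CPM in treated and 54.9 ± 22.4 CPM in untreated tumours (SD, n = 3 each). The log2 fold change was -0.96 for *Rbms3* and 0.89 for *Igfbp3*, or -0.74 and 0.78 without untreated 2.

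**Figure D5:**
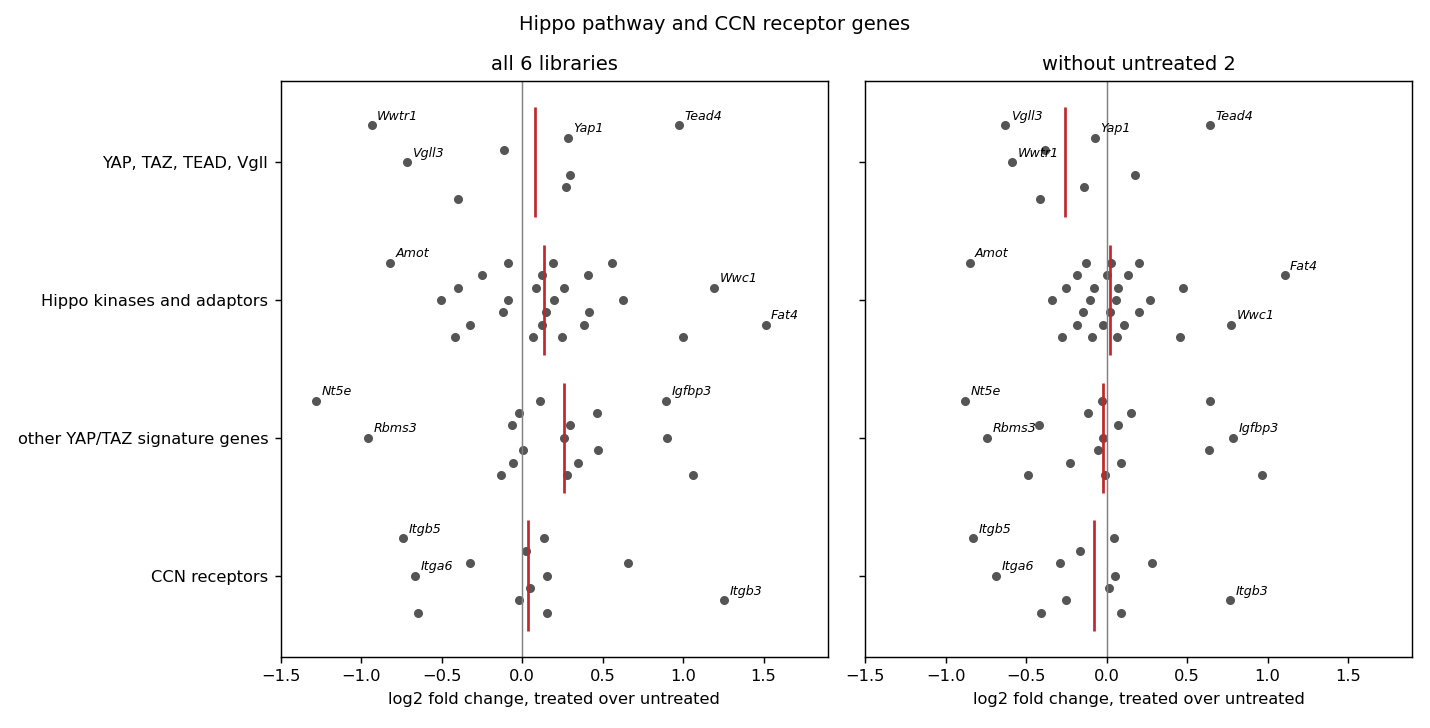
Log2 fold change, treated over untreated, of each tested gene (points) in 4 lists around the CCN and YAP target genes, with all 6 libraries (left) and without untreated 2 (right), and red lines for the list medians. The medians lie between 0.04 and 0.26 on the left and between -0.26 and 0.02 on the right, and genes with values given in the text are labelled.

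Receptors of CCN proteins lay on both sides of 0. Of 12 listed integrins, LRP receptors, *Sdc4* and *Notch1*, all 12 passed the filter, 7 were higher, 5 lower and 0 called, and the median log2 fold change was 0.04, or -0.08 without untreated 2. *Itgb5*, a partner of integrin alpha v, had 452, 613 and 318 CPM in treated tumours and 815, 673 and 819.8 CPM in untreated tumours, without overlap. The log2 fold change was -0.74 (SE 0.28, edgeR adjusted p = 0.592), or -0.83 without untreated 2. *Itga6*, a laminin-binding integrin that also binds the CYR61 protein, averaged 20.3 ± 4.82 CPM in treated and 32.4 ± 3.96 CPM in untreated tumours. *Itgb3* averaged 12.04 ± 1.86 CPM in treated and 4.87 ± 4.47 CPM in untreated tumours (SD, n = 3 each), with 0.669 CPM in untreated 2. On the log2 scale the difference of *Itga6* was -0.67 with all libraries and -0.69 without untreated 2, and that of *Itgb3* was 1.25 with all and 0.77 without it. In 2 of the 12 receptors all treated libraries lay above all untreated ones (10.6% of all tested genes did), and in 2 all lay below (10.2%).

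Markers of other cell types were summed beside these values. The summed level of 6 macrophage markers was 309 to 579 CPM in treated and 687 to 1124 CPM in untreated tumours, and that of 5 neutrophil markers was 34.4 to 83.8 CPM in treated and 13.5 to 41.8 CPM in untreated tumours. Endothelial markers (6) summed to 112 to 178 CPM in treated and 80.6 to 142 CPM in untreated tumours. Smooth muscle and pericyte markers (7) summed to 305 to 626 CPM in treated and 204 to 758 CPM in untreated tumours. Keratinocyte markers (7) summed to 4.35 to 66.8 CPM in treated and 5.89 to 1193 CPM in untreated tumours. Adipocyte markers (5) summed to 9.12 to 27.7 CPM in treated and 10.7 to 22.5 CPM in untreated tumours. The treated and untreated ranges were apart for macrophage markers alone. At least 1 library had no count for 5 keratinocyte, 4 adipocyte, 3 skeletal muscle, 1 neutrophil and 1 smooth muscle or pericyte marker. The part of these cells in the values of *Cyr61* and the other 8 genes was not tested.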

How the data were processed

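The members and gene lists were chosen with earlier results of these data known. The authors deposited, for each library, a table of unnormalized whole-number counts by gene symbol. Per the labels' protocols, Trizol was used for total RNA and a directional kit for the libraries. Per the submitters' processing notes, TopHat and mm10 were used. The counting program, strand setting and annotation were not given in the sources used here. Counts were filtered with filterByExpr (smallest count 10), scaled with TMM and fitted with edgeR 4.0.16 in R 4.3.3 (glmQLFit and glmQLFTest, 2-sided, Benjamini-Hochberg adjustment, threshold 0.05). The SE is the log2 fold change divided by the root of F. Log2 CPM used a prior count of 3. Length, GC content and positions came from GENCODE M21 (mm10), and 99.4% of tested genes had them. Replicates were compared by chi-square, and each pair within a group differed by more than sampling noise (10.1 or more per gene). Pairs across the groups differed by 5.64 (treated 2 and untreated 3) to 135 (treated 3 and untreated 2) per gene. The closest pair of libraries was thus a treated and an untreated one. The fit was also run on simulated data. The settings and outcome of that run are not given here, so nothing is read from it about the fit to these libraries. Named were all 9 genes, *Wisp3*, for each other list the 3 genes with the smallest p and the 1 of the other direction with the smallest p, which in each list was among the 3, and the 3 nearest profiles of each member. Beside these, *Yap1* and the marker and overlap examples were chosen after their values were seen. Alternatives were DESeq2 1.42.0, limma-voom (limma 3.58.1), other scalings and filters, each library left out, a replicate block, and a loess correction for GC content and length (span 0.3).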

Additional observations from a re-analysis of the deposited data

How the results depend on the processing

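Over 17 alternatives, of which 2 were chosen after seeing the data (DESeq2 and the GC and length correction, each without untreated 2), the log2 fold change of *Cyr61* lay between 1.55 and 1.89, the highest in the replicate block without number 2. That of *Ankrd1* lay between -0.14 and 1.17 over the fits without 1 library, and that of *Lats2*, 0.06 with all libraries, changed sign in 5 of 17. No sign change occurred in *Ctgf*, *Nov*, *Wisp1*, *Wisp2*, *Amotl2* or *Ajuba* under the alternatives that gave a value. DESeq2 called 18 higher and 39 lower, and 115 higher and 158 lower without untreated 2. Over the fits without 1 library, 0 were called higher and 0 to 4 lower, the 4 without untreated 3 (*Calm4*, *Dmkn*, *Hrnr*, *Klk7*). The GC and length correction without untreated 2 called 1 higher, which is *Cyr61*, by whose change the set was selected, so nothing is read from it. The replicate numbers have no stated meaning. The deviations of same-numbered libraries from their group means correlated at -0.18, -0.11 and 0.11, and those of other pairs at -0.22 to 0.24. With 3 libraries per group and untreated 2 apart from the rest, these values cannot decide whether same-numbered libraries were paired. The replicate block called 0 genes, and 759 higher and 598 lower without number 2, where 2 pairs remain, or 10.7% of the genes tested. Beside that share, the fit called 4 of 17 listed other signature genes (*Nt5e*, *Rbms3*, *Igfbp3*, *Ptpn14*) and 3 of 27 Hippo genes (*Amot*, *Fat4*, *Wwc1*). It also called 3 of 10 effectors (*Wwtr1*, *Vgll3*, *Vgll4*) and 1 of 12 receptors (*Itgb5*), and gave the receptors a median of -0.19. These counts are out of genes listed, while the share is of genes tested. In the main fit 8 of the 10 effectors and 26 of the 27 Hippo genes were tested. Of the 9 genes the replicate block without number 2 called *Cyr61* and *Wisp2*, and DESeq2 called *Cyr61* with and without untreated 2. Since this contrast chose the 9 genes, nothing is read from those calls. DESeq2 without untreated 2 called 1 each of the other signature, Hippo and receptor genes (*Nt5e*, *Amot*, *Itgb5*), where it called 2.41% of all genes, and gave the effectors a median of -0.26, where the fits without 1 library gave -0.26 to 0.21. Exon union length changed the order of levels, as given beside them. Over the fits without 1 library *Amotl2* lay between 0.15 and 0.91, *Lats2* between -0.32 and 0.35 and *Ajuba* between 0.00 and 0.74. The cause of these shifts was not tested. Genes named in this paragraph were chosen after their values were seen where the rule does not name them. Depth limits *Nov* and *Ankrd1*, with 6 to 47 counts per library.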
